A study of Mus musculus with 14 samples.

Results

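The natriuretic peptide system was followed here through 5 genes, the receptors Npr1, Npr2 and Npr3 and the ligands Nppb and Nppc, out of 55427 genes listed in the TPM table. They were taken by name, and the set was chosen by the measured level of Npr3, which was far lower in p53-deficient clones isolated at 4 months than in those isolated at P28. That difference is therefore given as a description, without a test. Of the 5 genes, 3 (the receptors) had enough counts to be tested among the 17358 genes that passed the filter on low counts, whereas Nppb and Nppc did not.

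Natriuretic peptides are small secreted hormones that act through cyclic GMP (cGMP). Npr1 encodes the receptor guanylyl cyclase for the atrial and B-type peptides, and Npr2 the receptor guanylyl cyclase for the C-type peptide, which is encoded by Nppc and drives endochondral bone growth by opposing Fgfr3 signaling in growth plate chondrocytes. Npr3 encodes the clearance receptor, which has no cyclase domain, internalizes all 3 peptides and can couple to inhibitory G proteins; mice lacking it overgrow their long bones.

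Bulk RNA-seq was performed on 14 libraries, each from 1 cultured clone of tdTomato+ cells from femoral bone marrow, with all mice pulsed with tamoxifen at P21. The Fgfr3-WT (P23) group held 5 clones of Fgfr3-creER; R26R(tdTomato/+) mice isolated at postnatal day 23 and kept to passage 8. The Fgfr3-p53 cKO groups came from Fgfr3-creER; Trp53fl/fl; R26R(tdTomato/+) mice, with 5 clones isolated at postnatal day 28 and kept to passage 8 (P28) and 4 clones isolated at 4 months and kept to passage 6 to 8 (P4M). All groups thus carried the Fgfr3-creER transgene, which activates in Fgfr3-expressing cells, and the reporter, and each library stands for a single expanded clone rather than for the population it was drawn from. The labels do not tie clones to animals, so p-values measure the spread between clones only. The names of all Fgfr3-WT libraries carried the number 1303 and those of all cKO libraries 2963. The labels do not say what this number stands for, and whatever it marks cannot be told apart from genotype, whereas the P4M and P28 clones share it. Total counts lay between 25688946 and 38958693 in the Fgfr3-WT clones, between 37606033 and 48648618 in the P28 clones and between 43757832 and 52857424 in the P4M clones.

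The labels were checked on Trp53 itself, which encodes p53. It had 49.9 to 68.2 CPM (counts scaled to library size) in the Fgfr3-WT clones, 2.18 to 2.85 CPM in the P28 clones and 1.72 to 2.37 CPM in the P4M clones, so no cKO clone came near an Fgfr3-WT clone. The labelled skeletal origin was checked on marker genes. The stromal markers Prrx1, Pdgfra, Pdgfrb, Twist1, Thy1, Lepr and Cxcl12 summed to 109.9 to 290.9 TPM (a level scaled to transcript length and library size) in the Fgfr3-WT clones, 441.2 to 949.1 TPM in the P28 clones and 323.0 to 478.8 TPM in the P4M clones. The most abundant on average was Pdgfrb in Fgfr3-WT (88.03 TPM) and Cxcl12 in P28 (303.1 TPM) and P4M (122.5 TPM), and Cxcl12 ranged from 0 to 148.6 TPM among the Fgfr3-WT clones. The defining endothelial markers Cdh5 and Cldn5 were at 0 in all groups, and the 6 endothelial markers summed to at most 3.26 TPM in any clone. Kdr made up most of that sum (up to 3.12 TPM) and was the only tested gene of the list. It was at 0.12 TPM or less in the Fgfr3-WT clones and passed the filter on low counts through cKO clones. Its log2 fold change over both cKO groups (4.59) is therefore given without a test.

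Npr2 was the most abundant of the receptors in all 14 clones and was lower in the p53-deficient clones. Its level in the 5 Fgfr3-WT clones was 84.9, 114.3, 179.8, 138.6 and 152.2 TPM. It was 62.3, 65.9, 48.8, 52.1 and 46.8 TPM in the P28 clones and 39.5, 37.6, 32.1 and 36.2 TPM in the P4M clones. Every cKO clone lay below every Fgfr3-WT clone, and in TPM, but not in CPM, every P4M clone also lay below every P28 clone. Relative to the Fgfr3-WT mean of 257.0 ± 79.5 CPM (SD, n = 5), Npr2 was 3.22-fold lower over both cKO groups, or -1.69 on the log2 scale (SE 0.18, adjusted p = 1.61e-05 by edgeR's quasi-likelihood test with Benjamini-Hochberg adjustment over all genes tested). The P28 clones differed from Fgfr3-WT by -1.50 on the log2 scale (SE 0.21, edgeR adjusted p = 0.000217) and the P4M clones by -1.87 (SE 0.23, edgeR adjusted p = 7.59e-05). By the same test 48.8% of all genes tested were called over both cKO groups, 38.9% in P28 and 45.9% in P4M, so that a call against the Fgfr3-WT clones was common. Groups that did not overlap were found for 18.1% of genes over both cKO groups, for 24.5% in P28 and for 33.6% in P4M.

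Npr1 moved the other way at a level far below that of Npr2. It was at 0.33, 0.1, 0, 0.16 and 0.1 TPM in the Fgfr3-WT clones, with 0 to 7 counts per library. In the P28 clones it was at 0.4, 2.92, 2.44, 0.59 and 0.3 TPM (25 to 280 counts), and in the P4M clones at 0.84, 0.7, 1.14 and 0.45 TPM (63 to 145 counts). P28 replicates 2 and 3 stood above the other cKO clones. Npr1 passed the filter on low counts only through the cKO groups, so that a gene with so few Fgfr3-WT counts had to differ to be tested at all. On the CPM scale all 9 cKO clones lay above all 5 Fgfr3-WT clones, whereas in TPM the lowest P28 clone lay below the highest Fgfr3-WT clone. Over both cKO groups Npr1 was 17.2-fold higher, or 4.11 on the log2 scale (SE 0.81). The difference was 4.26 for P28 (SE 0.85) and 3.96 for P4M (SE 0.86). No edgeR p is given for Npr1, since the filter on low counts tied its test to that difference. Without P28 replicate 2 the P28 difference was 3.44. On the log2(TPM + 1) scale, which compresses low values, the P4M difference was 0.64 and did not pass (adjusted p = 0.0981, limma). Between the P4M and P28 clones the log2 fold change of Npr1 was -0.30 (SE 0.75), turning to 0.52 without P28 replicate 2, and that of Npr2 was -0.37 (SE 0.22). Both come from the comparison that chose the genes and carry no test.

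Npr3 was present in the P28 clones and in 4 of 5 Fgfr3-WT clones and nearly absent from the P4M clones. In the Fgfr3-WT clones it was at 0.69, 22.3, 12.2, 18.0 and 33.0 TPM, with replicate 1 far below the rest. In the P28 clones it was at 58.5, 17.8, 44.2, 7.43 and 18.7 TPM. In the P4M clones it was at 0.14, 0.03, 0.6 and 0.18 TPM, which were 4 to 101 counts per library. The highest P4M clone thus lay below the lowest clone of either other group, though only just below Fgfr3-WT replicate 1 (1.995 against 2.09 CPM), and the lowest P28 clone held 11.1 times the CPM of the highest P4M clone. The means were 68.9 ± 46.7 CPM (SD, n = 5) in Fgfr3-WT, 88.5 ± 63.3 CPM (SD, n = 5) in P28 and 0.756 ± 0.856 CPM (SD, n = 4) in P4M.

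**Figure D1:**
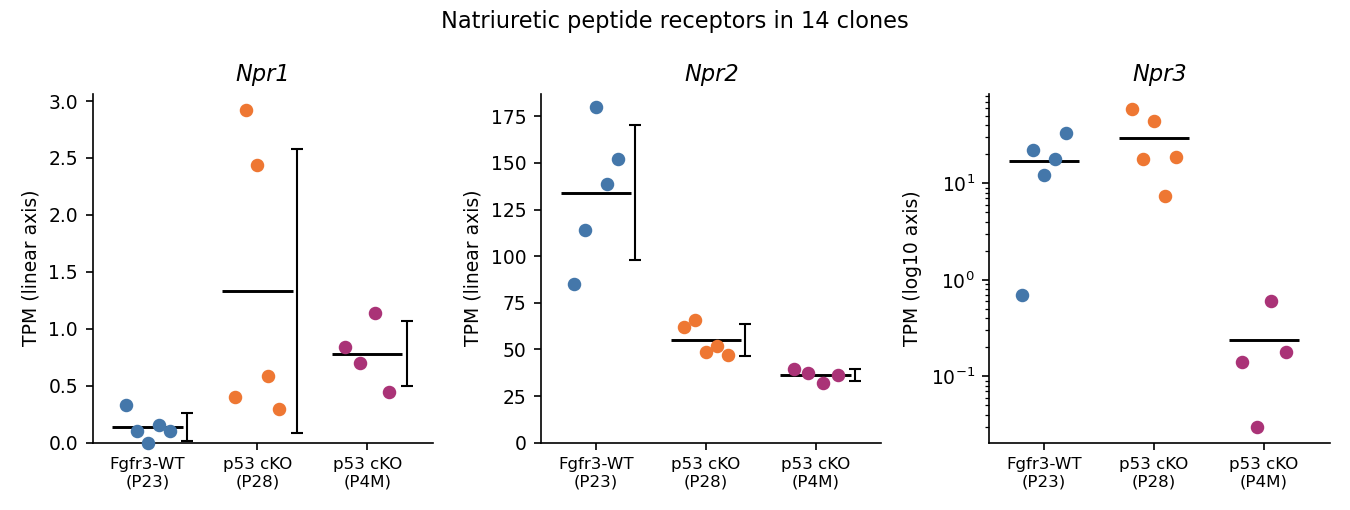
Level of Npr1, Npr2 and Npr3 in TPM in each of the 14 clones, with 1 point per clone, a line at the group mean and, on the linear axes, a bar of 1 SD (cut at 0). Npr2 lies below 66 TPM in all 9 cKO clones and at 84.9 TPM or more in the Fgfr3-WT clones, and Npr3, on a log10 axis, is at 0.6 TPM or less in the 4 P4M clones.

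Fitted over all clones, the log2 fold change of Npr3 was -6.85 (SE 1.21) in P4M against P28, -6.49 (SE 1.19) in P4M against Fgfr3-WT and 0.36 (SE 0.84) in P28 against Fgfr3-WT. No p is given for Npr3, since its values in the P4M and P28 clones chose the genes. For reference, 24 of the 17358 genes tested (0.138%) had a log2 fold change in P4M against P28 as low or lower, 7.22% of genes were called in that comparison, and 19.0% had groups that did not overlap. The P28 and Fgfr3-WT clones overlapped. The difference between them turned to -0.07 without P28 replicate 1 and was 0.02 without Fgfr3-WT replicate 1, so no order is read between these groups, and both had a higher mean than P4M. In bulk libraries fewer cells with the transcript and less transcript per cell cannot be told apart.

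**Figure D2:**
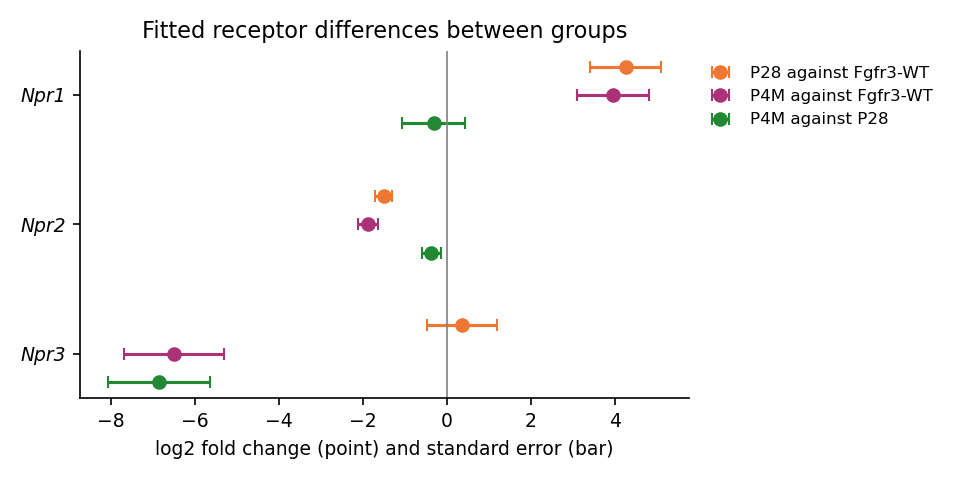
Fitted log2 fold change of each receptor, with points for the estimate and bars for 1 standard error, for each cKO group compared with Fgfr3-WT and for P4M compared with P28. Npr1 is above 0 in both comparisons with Fgfr3-WT (4.26 and 3.96), Npr2 is below 0 in both (-1.50 and -1.87), and Npr3 is below 0 in the 2 comparisons that involve P4M (-6.49 and -6.85).

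The 3 receptors also differed in how much clones of a group varied. The SD of log2 CPM among the Fgfr3-WT clones was 2.398 for Npr3, larger than that of 96.4% of genes tested, but 0.51 for Npr2, which was close to the median over all genes tested (0.51). The spread of both rested on Fgfr3-WT replicate 1, without which the SD was 0.58 for Npr3 and 0.29 for Npr2, against a median of 0.43. Among the P28 clones these SDs were 1.18 for Npr3, 1.56 for Npr1 and 0.24 for Npr2, against a median of 0.33. Among the P4M clones Npr3 varied with an SD of 1.63 and Npr2 with 0.18, against a median of 0.31, but at 4 to 101 counts the former holds counting error as well, and the latter was 0.10 without P4M replicate 3. Npr2 thus varied little among the clones of each cKO group, with the highest clone at 1.41 times (P28) and 1.31 times (P4M) the CPM of the lowest.

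Seen as shares of the summed receptor TPM, the balance between the signaling and the clearance receptor differed among groups. Npr2 made up 89.3% ± 6.96 (SD, n = 5) in Fgfr3-WT, 67.3% ± 15.7 (SD, n = 5) in P28 and 97.2% ± 1.60 (SD, n = 4) in P4M. Npr3 made up 10.6% ± 7.06, 31.2% ± 15.8 and 0.672% ± 0.755 in the same order, from 12.4% to 48.2% in single P28 clones and at most 1.77% in a P4M clone. Single Fgfr3-WT clones lay between 0.803% and 17.8%, so the Fgfr3-WT and P4M clones overlapped through Fgfr3-WT replicate 1. In that clone Npr2 made up 98.8%. Npr1 made up at most 3.37% of receptor TPM in any clone. The sum of the receptors was 151.3 ± 42.8 TPM in Fgfr3-WT, 85.8 ± 24.5 TPM in P28 and 37.4 ± 2.79 TPM in P4M. These shares follow from the same P4M and P28 values that chose the genes, and they were not tested.

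**Figure D3:**
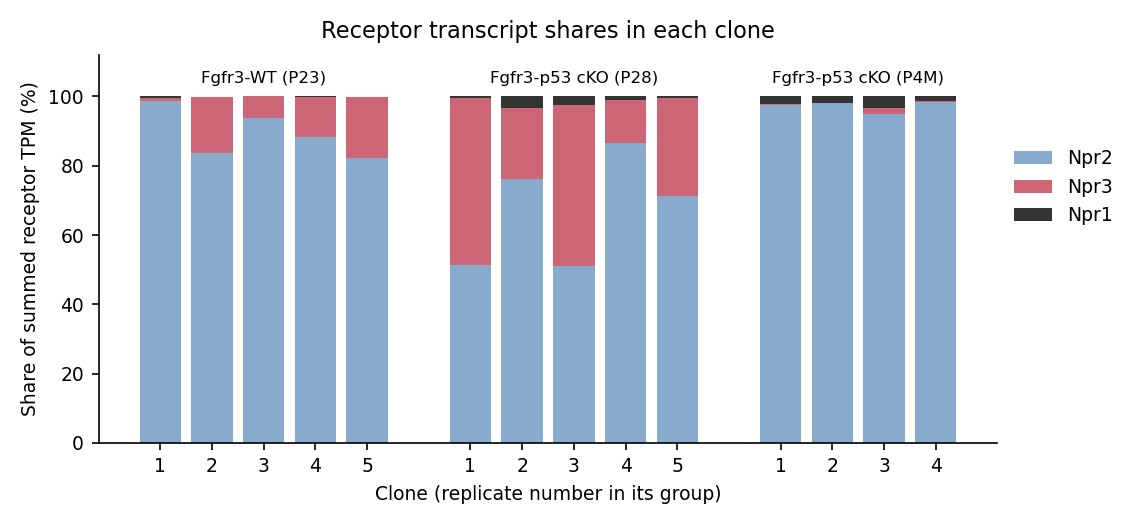
Share of Npr2, Npr3 and Npr1 in the summed receptor TPM (percent) of each clone, with 1 stacked bar per clone and clones numbered within their group. Npr3 takes 12.4% to 48.2% in the P28 clones and at most 1.77% in the P4M clones, where Npr2 takes 94.8% or more. In Fgfr3-WT replicate 1 Npr3 takes 0.803% and Npr2 98.8%.

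The receptor genes lie on 3 chromosomes of mm10. Npr1 (ENSMUSG00000027931) spans 90450591 to 90465866 on the minus strand of chromosome 3, Npr2 (ENSMUSG00000028469) 43631935 to 43651244 on the plus strand of chromosome 4, and Npr3 (ENSMUSG00000022206) 11839896 to 11907287 on the minus strand of chromosome 15. Each shares exonic bases with an antisense gene, and since the counting is not stated to use strand, reads there cannot be told apart. The shared part is 11.7% of the exonic bases of Npr1 (with Gm16048, 5 counts over all clones), 5.70% of those of Npr2 (with Gm12473, 1022 counts) and 3.42% of those of Npr3 (with Gm5144, 148 counts).

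Gm5144 is annotated as a bidirectional promoter lncRNA whose 946 bases run across the start of Npr3 on the other strand. It had 67 counts over the Fgfr3-WT clones and 81 over the P28 clones, with 0 only in Fgfr3-WT replicate 1, the Fgfr3-WT clone with the lowest Npr3. It had 0 counts in every P4M clone, which against a floor of 3 counts over the group places it at least 22.7-fold lower than in P28 and at least 30.1-fold lower than in Fgfr3-WT. Of the 67 Fgfr3-WT counts 35 came from replicate 5, and without it the latter bound was 17.5-fold. Its extent also covers the RefSeq start of Npr3, which lies 84 bases beyond the GENCODE start, so counts given to Gm5144 cannot be told apart from reads of the first bases of Npr3, and transcription of both strands is not shown. Because the counts across this start were low in the same clones, the 120 bases before the RefSeq start of Npr3 are shown beside those of Npr2 for comparison. They run 5′ to 3′ on the strand of the gene at chr15:11907372-11907491 (minus strand, RefSeq, GRCm38.p6) and chr4:43631815-43631934 (plus strand), and 93 of the 120 Npr3 bases lie within the annotated extent of Gm5144. Capitals mark matches to the TATA box letters TATAAA, the CCAAT box or the GC box letters GGGCGG on either strand.
Npr3: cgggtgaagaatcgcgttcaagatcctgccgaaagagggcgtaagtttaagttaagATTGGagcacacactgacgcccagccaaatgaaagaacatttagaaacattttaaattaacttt
Npr2: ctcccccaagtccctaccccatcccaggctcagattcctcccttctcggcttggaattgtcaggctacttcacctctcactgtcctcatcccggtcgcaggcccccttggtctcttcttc

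The 2 sequences differ in base composition. Over the 250 bases before the start, G and C made up 38.8% in Npr3, 64.4% in Npr2 and 70.4% in Npr1, against a median of 52.4% over 32851 RefSeq promoter windows, of which 9.70% had a lower share than Npr3. The Npr3 window held 6 CpG dinucleotides, the Npr2 window 13 and the Npr1 window 21. The capitals in Npr3 are a CCAAT box on the opposite strand, a motif present in 33.9% of all windows. Neither stretch holds TATAAA or GGGCGG, which 12.4% and 32.7% of windows hold. Farther from the start, the Npr3 window also holds a run of 28 GAA repeats, and runs of at least 10 occur on either strand in 13 of the 32851 windows (0.0396%). These matches describe the letters of the window only.

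The genes around Npr3 were followed to see whether its difference between P4M and P28 was shared along the chromosome. Beside Gm5144, 9 of the nearest genes tested lie between 10714836 and 12321899 on chromosome 15. Of these 9, 1 was lower in P4M than in P28 and none was higher, near the background of 7.22% of all genes called. It was C1qtnf3, which encodes the secreted adipokine CTRP3, with its start at -955.0 kb from that of Npr3. C1qtnf3 was at 4.26 to 64.5 TPM in the P28 clones, 0.33 to 0.61 TPM in the P4M clones and 0.05 to 1.24 TPM in the Fgfr3-WT clones, and its log2 fold change in P4M against P28 was -5.66 (SE 1.12, edgeR adjusted p = 0.013). Unlike Npr3 it was also higher in P28 than in Fgfr3-WT (5.91, SE 1.04, edgeR adjusted p = 0.00085). The other 8 neighbors lay between -0.43 (Mtmr12) and 0.32 (Tars) in P4M against P28 and did not pass the test, among them Adamts12, Zfr and Sub1.

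**Figure D4:**
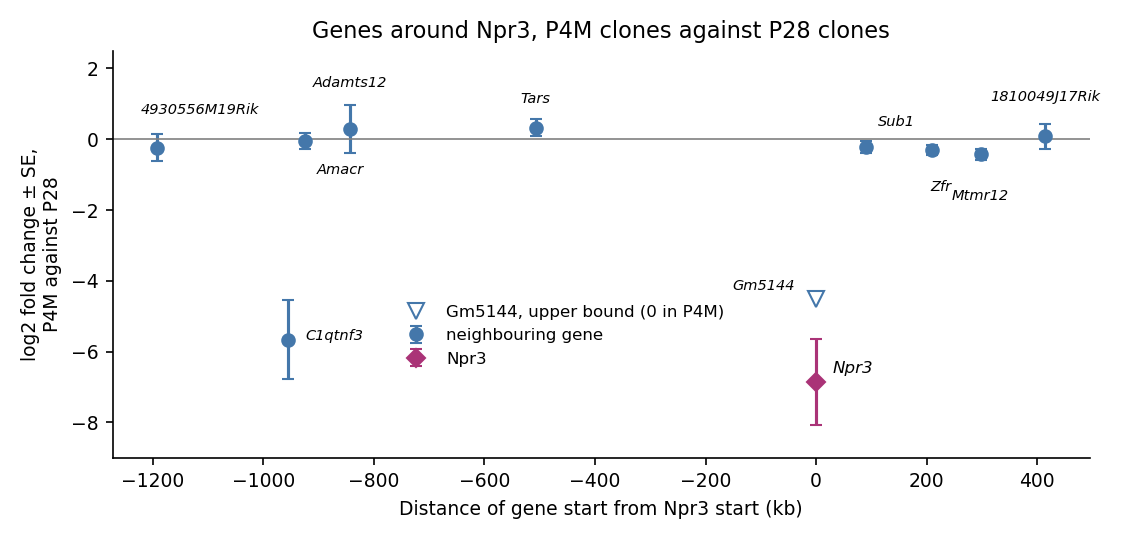
Log2 fold change in P4M against P28 (points, with bars of 1 standard error) of Npr3 and of the 5 tested genes on either side, plotted by the distance of each gene's start from that of Npr3 in kb. Npr3 (-6.85) and C1qtnf3 (-5.66) lie far below 0, Gm5144 is drawn as an open triangle at the bound that its floor sets (-4.5), and the other 8 genes lie between -0.43 and 0.32.

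Among all genes tested, those whose levels followed Npr3 most closely over the 14 clones were Pi15, Dmd, Aff3, Ogn, Sulf1 and Itih2. The measure was the root mean square difference of log2 CPM after centring each gene, which was 1.51 for Pi15, a peptidase inhibitor, and 1.79 for Itih2, a hyaluronan-binding protein, against a median over genes of 3.49. Ogn, which encodes the matrix proteoglycan osteoglycin, was at 97.9 to 526.2 TPM in Fgfr3-WT, 163.5 to 1508 TPM in P28 and 13.2 to 27.1 TPM in P4M. Sulf1, an extracellular sulfatase that trims heparan sulfate, was at 0.23 TPM in Fgfr3-WT replicate 1, the lowest of that group as for Npr3, at 8.23 to 35.5 TPM in P28 and at 0.43 to 2.25 TPM in P4M. Ranked by Pearson correlation instead, none of these 6 was among the first 6 genes, so the list depends on the measure. All points share their libraries, and the likeness rests mainly on the low P4M values.

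Transcripts of the natriuretic peptides themselves were scarce. Nppb, the B-type peptide gene (chromosome 4, 147985788 to 147987205, plus strand), had no count in any Fgfr3-WT clone. It had 1, 5, 12, 1 and 3 counts in the P28 clones (0.06 to 0.75 TPM) and 2, 1, 8 and 2 counts in the P4M clones (0.06 to 0.43 TPM). Counts were thus seen in 9 of 9 cKO clones and in 0 of 5 Fgfr3-WT clones. Against a floor of 3 counts over the Fgfr3-WT group (0.0211 CPM), Nppb was at least 4.58-fold higher in P28 and at least 3.22-fold higher in P4M, but it was too low to be tested. A single clone carried much of each bound, which was 2.67-fold without P28 replicate 3 and 1.68-fold without P4M replicate 3. Such floors cover counting error only, since PCR reads without molecular identifiers are not independent molecules. They do so only for the group at 0, and the counting error of the other group is not in the bound.

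Nppc, which encodes the C-type ligand of Npr2 (chromosome 1, 86666291 to 86670571, minus strand), was not detectable in 10 of the 14 clones at this depth. It had 1 count in 1 Fgfr3-WT clone, 7 counts in 1 P28 clone, 1 and 2 counts in 2 P4M clones and 0 in the rest. The most abundant receptor therefore had almost no transcript of its ligand in the same cultures. Nppa, the atrial peptide gene, was at 0 to 0.32 TPM in Fgfr3-WT, 0.3 to 1.11 TPM in P28 and 0 to 0.63 TPM in P4M, with at most 20 counts per clone. It shares 61.5% of its exonic bases with the antisense gene Gm13054 and is uncertain for that reason. Of the cardiac muscle markers other than Nppa, Myh6 was at 0 in every clone, and Tnnt2 was at 0.638 TPM on average in Fgfr3-WT, 0.41 TPM in P28 and 4.55 TPM in P4M. Their part in the Nppa and Nppb levels was not tested.

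Osteocrin, encoded by Ostn, is a bone-derived peptide that binds the clearance receptor and not the cyclases. It was the only listed ligand above 1.11 TPM in these clones. It was at 53.2, 6.77, 16.4, 24.2 and 0.75 TPM in the Fgfr3-WT clones, at 0.85, 0, 0.17, 0.63 and 7.02 TPM in the P28 clones and at 6.24, 1.51, 5.03 and 6.1 TPM in the P4M clones. The groups overlapped, through Fgfr3-WT replicate 5 at the low end and P28 replicate 5 at the high end. Over both cKO groups Ostn was lower (log2 fold change -3.04, SE 0.99, edgeR adjusted p = 0.0215), but without Fgfr3-WT replicate 1 it was not called (edgeR adjusted p = 0.0696). In P28 it was lower with a log2 fold change of -3.87 (SE 1.27, edgeR adjusted p = 0.0275), a call lost without Fgfr3-WT replicate 1 or without P28 replicate 1, 3 or 4 (edgeR adjusted p = 0.054 to 0.0616), and also lost with no filter on low counts or with only the groups compared, whereas without P28 replicate 5 the log2 fold change was -5.90. In P4M its log2 fold change was -2.20 (SE 1.28, edgeR adjusted p = 0.175), and in P4M against P28 it was 1.67 (SE 1.21, edgeR adjusted p = 0.413).

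**Figure D5:**
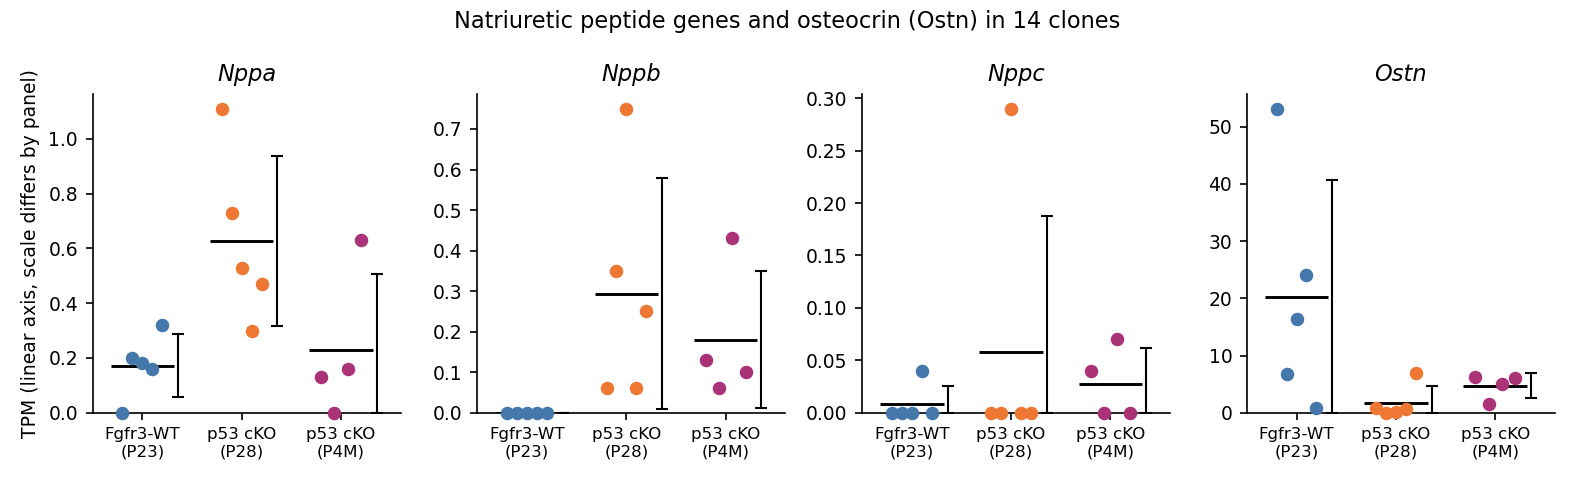
Level of Nppa, Nppb, Nppc and Ostn in TPM in each clone, with 1 point per clone, a line at the group mean and a bar of 1 SD (cut at 0), on linear axes whose scale differs by panel. The peptide genes reach at most 1.11 TPM (Nppa, P28), whereas Ostn reaches 53.2 TPM in an Fgfr3-WT clone.

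Of 6 tested genes of ligands and peptide processing, 3 were lower and none higher over both cKO groups (3 of 6 called, near the background of 48.8% of all genes), with a median log2 fold change of -0.68 against -0.05 over all genes. Beside Ostn these were Furin, a proprotein convertase, and Ide, the insulin-degrading enzyme, which also cleaves natriuretic peptides. Corin, Pcsk6 and Mme complete the list with Nppa. Furin was at 37.0 ± 9.37 TPM (SD, n = 5) in Fgfr3-WT, 26.0 ± 3.75 TPM (SD, n = 5) in P28 and 21.1 ± 3.12 TPM (SD, n = 4) in P4M (log2 fold change over both cKO groups -0.82, SE 0.15, edgeR adjusted p = 0.000644). Ide was at 60.7 ± 18.5, 36.3 ± 5.99 and 39.5 ± 9.31 TPM (-0.87, SE 0.19, edgeR adjusted p = 0.00203). None of the 6 genes was called between P4M and P28.

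Downstream of the receptors, cGMP acts through its protein kinases. Of 7 tested genes of cGMP effectors, 2 were higher and 1 was lower over both cKO groups (42.9% called, against 48.8% of all genes), none was called in P28 (38.9% of all genes), and 2 were lower in P4M against P28 (28.6%, against 7.22%). The lower gene was Prkg1, the type I cGMP-dependent protein kinase. It was at 3.25 to 17.6 TPM in the Fgfr3-WT clones, 4.5 to 11.2 TPM in the P28 clones and 0.6 to 1.61 TPM in the P4M clones, where all 4 lay below the other 10 clones. Its log2 fold change was -2.64 (SE 0.50, edgeR adjusted p = 0.0112) in P4M against P28 and -3.33 (SE 0.52, edgeR adjusted p = 0.00031) in P4M against Fgfr3-WT. Mrvi1, which encodes the type I kinase substrate IRAG, was at 7.40 ± 6.41 TPM (SD, n = 5) in P28 and 0.138 ± 0.110 TPM (SD, n = 4) in P4M (log2 fold change -5.34, SE 1.43, edgeR adjusted p = 0.0405). That call was lost in 7 of 14 fits that left out 1 clone, with P28 replicate 1, 3 or 4 or any P4M clone left out (edgeR adjusted p up to 0.111).

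Prkg2, the type II kinase through which the C-type peptide acts in growth plate cartilage, was named here for that role after its values were seen. It was at 4.34 to 161.4 TPM in Fgfr3-WT, 20.03 to 43.3 TPM in P28 and 41.9 to 153.9 TPM in P4M, so the groups overlapped. It was not called over both cKO groups (log2 fold change -0.34, SE 0.64, edgeR adjusted p = 0.684), and without Fgfr3-WT replicate 1, the clone with the highest level, the sign turned (0.53). Cngb1, a cyclic nucleotide-gated channel subunit, and Kcnma1, a calcium-activated potassium channel, were the 2 higher genes over both cKO groups, though each call was lost when single clones were left out (4 of 14 fits for Cngb1, edgeR adjusted p up to 0.0643, and 10 of 14 for Kcnma1, up to 0.0974). Kcnma1 was at 1.54 ± 1.67 TPM in Fgfr3-WT and 11.2 ± 5.79 TPM in P4M (log2 fold change 2.99, SE 0.99, edgeR adjusted p = 0.0256), a call lost without Fgfr3-WT replicate 4 or without P4M replicate 1 or 2 (edgeR adjusted p up to 0.0572), whereas Cngb1 was at 0.44 TPM or less in every clone. With at most 12 counts in any Fgfr3-WT clone, Cngb1 passed the filter on low counts through cKO clones. Its call is therefore not read as a test.

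Of 9 tested genes of cGMP phosphodiesterases and their subunits, 4 were lower and 1 was higher over both cKO groups (55.6% called, against 48.8% of all genes), with a median log2 fold change of -0.87. Pde3a, which hydrolyzes cAMP and is inhibited by cGMP, was at 4.14 ± 2.13 TPM (SD, n = 5) in Fgfr3-WT, 2.10 ± 1.41 TPM (SD, n = 5) in P28 and 0.158 ± 0.207 TPM (SD, n = 4) in P4M, a log2 fold change of -4.80 in P4M against Fgfr3-WT (SE 0.99, edgeR adjusted p = 0.00181). In P4M against P28 its log2 fold change was -3.56 (SE 0.93, edgeR adjusted p = 0.0366), a call lost in 6 of 14 fits that left out 1 clone, with P28 replicate 1, 2 or 3 or P4M replicate 1, 2 or 4 left out (edgeR adjusted p up to 0.0969). Pde6d, a prenyl-binding subunit with no phosphodiesterase activity of its own, was lower in both cKO groups (log2 fold change over both -1.05, SE 0.12, edgeR adjusted p = 3.49e-05), as was Pde1b, a calmodulin-dependent phosphodiesterase (-3.09, SE 0.69, edgeR adjusted p = 0.00267). In P28 alone the call of Pde1b was lost without Fgfr3-WT replicate 5 or P28 replicate 2 or 5 (edgeR adjusted p up to 0.0672). Pde5a, the cGMP-specific phosphodiesterase, was higher in P28 than in Fgfr3-WT (3.37, SE 0.99, edgeR adjusted p = 0.0165), at 2.10 ± 2.08 against 0.21 ± 0.134 TPM. P28 replicates 4 and 5, at 0.09 and 0.17 TPM, lay within the Fgfr3-WT range of 0.02 to 0.33 TPM.

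Cyclases other than the natriuretic receptors were hardly present. Of 12 listed guanylyl cyclases and nitric oxide synthases, 5 had enough counts, and 1 was called in each comparison, against 48.8% of all genes over both cKO groups, 38.9% in P28, 45.9% in P4M and 7.22% in P4M against P28. The call over both cKO groups, of Nos2, was lost in 8 of 14 fits that left out 1 clone, with any Fgfr3-WT replicate except 3, P28 replicate 1, 4 or 5 or P4M replicate 3 left out (edgeR adjusted p up to 0.0899). Nos2, the inducible nitric oxide synthase, was at 0.24, 0.18, 2.22 and 0.23 TPM in the P4M clones and at most 0.09 TPM in any other clone. It had 22 to 312 counts in the P4M clones and at most 4 in any other clone. Nos2 thus passed the filter on low counts only through P4M, and its calls are not read as tests. Its log2 fold change in P4M against P28 was 5.23 (SE 1.04), which fell to 3.43 without P4M replicate 3. On log2(TPM + 1) it was not called (0.57, limma adjusted p = 0.129). Gucy1a1, a subunit of soluble guanylyl cyclase, was called in P28 against Fgfr3-WT (5.35, SE 1.98) on account of P28 replicates 4 and 5, since the other 3 P28 clones were at 0. It had at most 4 counts in any Fgfr3-WT clone and passed the filter through cKO clones, so this call is not read as a test either. Without P28 replicate 5 its adjusted p was 0.166, and the call was lost in 9 of 14 fits that left out 1 clone, with each Fgfr3-WT clone and P4M replicates 1, 2 and 4 the others.

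Of the 4 tested genes through which Npr3 can signal by inhibitory G proteins, the subunits Gnai1 and Gnai3 were higher in both cKO groups, none was lower, and none was called between P4M and P28. Gnai2, the most abundant of the subunits (343.7 TPM on average in Fgfr3-WT, 399.0 TPM in P28 and 317.4 TPM in P4M), was not called over both cKO groups (log2 fold change 0.10, edgeR adjusted p = 0.656), nor was the phospholipase Plcb3 (0.51, edgeR adjusted p = 0.105). That 2 of 4 genes were called is near the background of 48.8% of all genes. Gnai1 was at 1.41 ± 1.24 TPM (SD, n = 5) in Fgfr3-WT, 13.9 ± 5.18 TPM (SD, n = 5) in P28 and 19.0 ± 10.7 TPM (SD, n = 4) in P4M, a log2 fold change of 3.30 over both cKO groups (SE 0.61, edgeR adjusted p = 0.000724). Gnai3 was at 34.8 ± 4.15, 79.3 ± 5.51 and 87.3 ± 10.4 TPM in the same order (1.08, SE 0.09, edgeR adjusted p = 4.40e-06).

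Of 7 tested genes of the Fgfr3 and ERK cascade, which the C-type peptide opposes in chondrocytes, 2 were lower over both cKO groups. There 48.8% of all genes were called, and genes of this list were not called more often than that. Fgfr3 itself was at 26.4 ± 18.6 TPM (SD, n = 5) in Fgfr3-WT, 7.16 ± 7.32 TPM (SD, n = 5) in P28 and 5.31 ± 0.872 TPM (SD, n = 4) in P4M (log2 fold change -2.35, SE 0.61, edgeR adjusted p = 0.0067). Braf, a kinase upstream of MEK, was lower by -1.004 on the log2 scale (SE 0.18, edgeR adjusted p = 0.000483). Map2k1 (MEK1) was the 1 gene of the list called between P4M and P28 (0.57, SE 0.14, edgeR adjusted p = 0.0261), where 7.22% of all genes were called. It was not called without P28 replicate 3 or P4M replicate 3 or 4 (edgeR adjusted p up to 0.0679), nor on log2(TPM + 1) (0.35, limma adjusted p = 0.12).

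Over all 6 pathway lists, 17 of 38 tested genes (44.7%) were called over both cKO groups against 48.8% of all genes, 13 (34.2%) in P28 against 38.9%, 14 (36.8%) in P4M against 45.9% and 5 (13.2%) in P4M against P28 against 7.22%. These shares were near the background in the comparisons with Fgfr3-WT, and the last rests on 5 genes.

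Cell type markers also differed among the groups and are given for that reason. The 12 chondrocyte markers summed to a median of 3199 TPM in Fgfr3-WT (492.9 to 6694), 653.0 TPM in P28 (530.9 to 1098) and 80.7 TPM in P4M (22.1 to 145.8), with Col2a1 the most abundant on average in Fgfr3-WT (1865 TPM), Col11a1 in P28 (320.0 TPM) and P4M (65.7 TPM), and Matn1 at 0 in every P4M clone. Of 11 tested, all 11 were lower in P4M than in Fgfr3-WT, where 45.9% of all genes were called, and 3 were lower in P4M than in P28, where 7.22% were called. The 8 osteoblast markers summed to a median of 2356 TPM in Fgfr3-WT, 12490 TPM in P28 and 14030 TPM in P4M, with 5 of 8 higher and 1 lower over both cKO groups (48.8% of all genes called) and none called between P4M and P28 (7.22%). The most abundant on average was Spp1 in Fgfr3-WT (2425 TPM), which was the lower gene, Col1a2 in P28 (5272 TPM) and Col1a1 in P4M (6253 TPM). The summed level of the 5 smooth muscle and pericyte markers, with medians of 71.98, 1991 and 467.8 TPM, was mostly Acta2 in the cKO groups, and over both cKO groups Acta2, Cspg4 and Myh11 were higher whereas Rgs5 and Des were lower. The 8 hematopoietic markers, led by Lyz2, had medians of 74.7, 14.9 and 9.1 TPM, with Cd3e at 0 in every cKO clone. The part of these differences in the receptor levels was not tested.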

How the data were processed

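RNA from 14 clones was made into libraries with SMART-Seq v4, which does not mark strand, and sequenced with 50-cycle single-end reads. Per the study's methods, the authors aligned reads to mm10 with TopHat and Bowtie2 and counted non-ambiguous reads per gene with HTSeq, and these counts were deposited unnormalized. The deposited expected counts were equal to the counts for all 30503 genes of the count table. The authors also deposited TPM values, and the tool that made them is not given in the sources used here. The deposited depth-normalized, rlog and FPKM tables were not used.

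Groups came from the sample labels. Counts were fitted with edgeR 4.0.16 (R 4.3.3) in 1 model of 3 group means over all 14 clones, with TMM scaling, its filter on low counts (17358 genes left), robust quasi-likelihood tests and Benjamini-Hochberg adjustment at 0.05, and the procedure was tested on simulated data. Log2 CPM used a prior count of 2. Floors were 3 counts. No replicate pair was alike within sampling noise (lowest chi-square per degree of freedom 66.0). Alternatives were other scalings, DESeq2 1.42.0, limma 3.58.1 on log2(TPM + 1), other filters, fits of the compared groups only and leaving out each clone. Python 3.11.15 and matplotlib 3.10.9 were used for summaries and plots.

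The members and all lists were chosen with earlier results of these data known. Named genes were the members, Trp53, Nppa, Ostn, up to 3 called genes of each list and comparison with the smallest adjusted p, the 6 genes most like Npr3 and the 5 tested neighbors on each side. A test of Npr3 over both cKO groups had been planned but is not given, since its P4M and P28 values chose the set. The result of a single gene of the pathway lists is not reported here, although the totals over the lists count it.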

Additional observations from a re-analysis of the deposited data

Results flagged for a closer look

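In 3 of 20 groups of clones checked the highest CPM lay far from the rest by Dixon's criterion, which flags about 1 in 20 groups by chance. Nppc was at 0.0285 CPM in Fgfr3-WT replicate 4 and at 0 in the other Fgfr3-WT clones, which is 1 count against none. It was at 0.139 CPM in P28 replicate 3 and at 0 in the other P28 clones, or 7 counts against none. Where all other clones are at 0, any count meets the criterion, so neither Nppc value says more than that the gene was near the limit of detection. Ostn was at 4.92 CPM in P28 replicate 5, against 0.624 CPM in the next P28 clone.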

How the results depend on the processing

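Npr2 kept its direction and call against Fgfr3-WT under every alternative run (-1.86 to -1.52 over both cKO groups). Npr1 kept its direction against Fgfr3-WT, and its calls are not read. On log2(TPM + 1) limma gave 0.64 for Npr1 in P4M, 0.76 over both cKO groups and 0.88 in P28. On that scale, which compresses low values, the log2 difference of Npr3 was -1.23 over both cKO groups, -3.38 between P4M and Fgfr3-WT and -4.31 between P4M and P28, and Prkg2 reversed to 0.86 over both cKO groups. Without single clones Prkg2 lay between -0.64 and 0.53, positive without Fgfr3-WT replicate 1, and Npr3 in P4M against P28 between -7.97 and -6.42. The count of genes called in P4M against P28, 1254, became 2814 with DESeq2 and 3051 with only the groups compared, and lay between 480 (without P4M replicate 1) and 2132 (without Fgfr3-WT replicate 1) when a clone was left out. The 5 pathway genes called there became 3 without a filter, 2 with at least 10 counts in every clone, 2 with limma, and 2 to 7 without single clones. The cause of these changes was not tested. Fits of only the compared groups were not run over both cKO groups, since all groups enter it. Npr1 and Npr3 had no value under the filter of 10 counts in every clone. No paired analysis was possible because replicate numbers only follow accession order. Depth limits Nppb and Nppc, which had 12 counts or fewer per clone. Among other calls given, log2(TPM + 1) also lost those of Cngb1, of Nos2 over both cKO groups, of Gucy1a1 and Pde1b in P28 and of Pde3a between P4M and P28, and no filter those of Gucy1a1 in P28, Kcnma1 over both cKO groups, and Mrvi1 and Pde3a between P4M and P28. Leaving out single clones from the bounds of Nppb and Gm5144 and from the spread of the receptors was chosen after seeing the data.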
